A study of Mus musculus with 7 samples.

Results

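The semaphorins, Slits and netrins are the classical axon guidance ligands, and the plexins, neuropilins, Robos, Dcc, Neo1 and Unc5 proteins are their receptors. Genes of these families were selected by symbol on the array's annotation, and the selection used no measured value. It gave 50 genes, represented by 117 probe sets that each name 1 gene, out of 18193 genes on the array. Of the 50, 36 passed the filter on low signal (a probe set at or above the median signal of its array on at least 3 arrays, without regard to group). They stand among 11089 genes tested. More than 1 probe set was kept for 19 of them, and for 5 of these 19 a pair of kept probe sets had opposite signs. The measured members were 16 semaphorin, 8 plexin, 1 neuropilin, 2 Slit, 2 Robo and 3 netrin or netrin-G genes and 4 netrin receptor genes.

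The cells were granule neuron precursors, the dividing cells of the outer cerebellum that become granule neurons, sorted from mice of the genotype Math1-Cre/Ptc-loxp/Nestin-CFP. Math1-Cre, active in the granule lineage, removes the Hedgehog receptor gene Ptch1, and Nestin-CFP marks cells that use regulatory sequence of Nes. Both fractions carried every one of these alleles and were untreated and uncultured, so that the comparison holds within Ptch1-deficient cerebella and includes no normal precursors. The Nestin-positive fraction had 4 samples, numbered 1, 3, 4 and 5, and the Nestin-negative fraction had 3, numbered 1, 4 and 5. Age is given as postnatal day 7 with the samples and as day 4 in the series text, and the labelled tissue is medulloblastoma. The labels do not say whether samples came from separate or pooled animals, so the p-values measure the spread between these samples, which may be technical. The values are MAS5 signals, the linear brightness of a probe set as deposited, and they are compared between arrays for 1 probe set at a time, the brightest of each gene unless another is named. With 7 arrays the precision is limited by their number.

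As a check of the sort, Nes gave signals of 478, 829, 722 and 543 on Nestin-positive replicates 1, 3, 4 and 5 and 179, 174 and 217 on Nestin-negative replicates 1, 4 and 5 (limma, log2 difference 1.73 ± 0.21 SE, adjusted p = 0.0282). This checks the labels and is no finding. All 8 granule neuron precursor markers, among them Atoh1, Barhl1 and Zic1, lay above the array median on all 7 arrays. Their summed signals were lower on the Nestin-positive arrays, at 57207 to 65896 against 68808 to 71634. Their mean log2 signals relative to all arrays overlapped, at -0.10 to 0.11 against -0.054 to 0.098. The replicate numbers were taken to pair the samples, as judged from correlations in the data and not from the labels. Each result is therefore also given with that number entered as a block, a fit that rests on the 3 pairs and takes nothing from the unpaired Nestin-positive replicate 3.

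Semaphorins signal through plexins. Secreted class 3 semaphorins mostly need a neuropilin as co-receptor, whereas membrane-bound semaphorins can bind plexins directly. Slits repel growth cones through Robos, and netrins attract through Dcc and repel through Unc5 receptors, alone or together with Dcc. In the developing cerebellum these systems are known for steering granule cells. Sema6a and its receptor Plxna2 act in the exit of granule cells from the outer layer, and loss of Unc5c lets granule cells stray beyond the cerebellar border.

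The guidance genes that fell in Nestin-positive cells with the replicate block were Unc5c, Unc5b, Sema6a, Sema4f, Plxna2, Ntng1 and Sema3d, and none passed in the fit with no block. Of the 36 measured members, 28 had negative log2 differences (Nestin-positive minus Nestin-negative) and 8 positive ones (77.8% negative, against 54.5% of all genes). Their median was -0.21, against -0.026 over all 11089 genes. Limma called 0 members at an adjusted p under 0.05 with no block, against 0.171% of all genes higher and 0.577% lower. At an unadjusted p under 0.05 there were 10 lower members and 1 higher, against 9.09% of all genes lower and 5.33% higher. With the replicate block 7 members fell and 0 rose. They made up 19.4% of the measured members, against 6.39% of all genes lower and 3.58% higher in that fit. Sema3d passed the filter through the Nestin-negative arrays alone, so that it had to differ. Among genes at or above the median on at least 1 array of each fraction, 6 of 35 members fell (17.1%), against 6.26% of 11037 genes. The groups did not overlap for 10 members lower in Nestin-positive cells (27.8%, against 9.11% of all genes) and for 2 higher ones, Dcc and Sema3a (5.56%, against 5.87% of all genes). The 10 include Sema3d, whose separation followed from its entry through the Nestin-negative arrays alone, so that this share is no support for a direction. No test of the list as a whole was made, and in RNA from sorted cell mixtures, fewer cells of a type and less RNA per cell cannot be told apart.

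**Figure D1:**
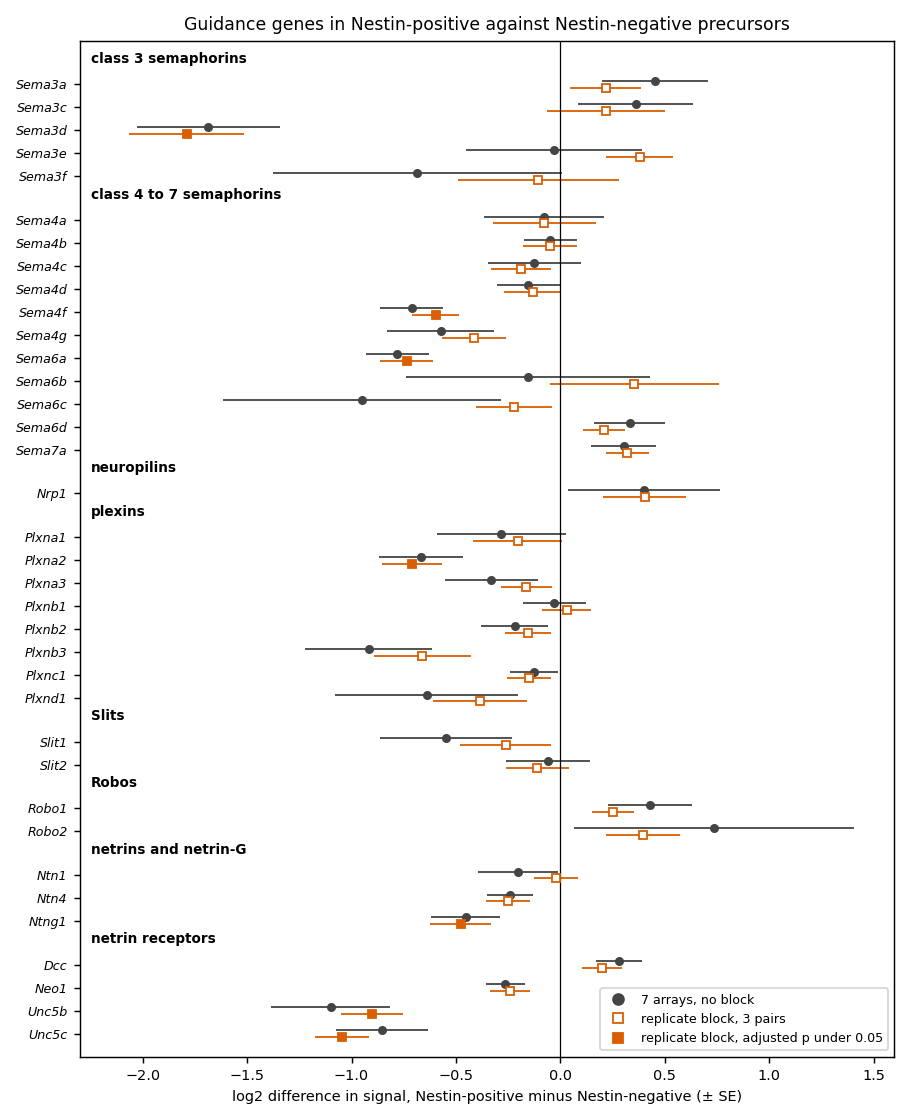
Log2 difference in signal (Nestin-positive minus Nestin-negative, x axis) for the 36 measured guidance genes, ordered by role. Grey circles are the fit of 7 arrays, orange squares the fit with the replicate block over 3 pairs, bars are SE, and filled squares mark the 7 genes with an adjusted p under 0.05 in the blocked fit, all of them left of 0.

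Of the 4 measured netrin receptors 2 fell with the block, and Dcc had the opposite sign. Unc5c, a repulsive netrin receptor, had signals of 342, 705, 421 and 488 on Nestin-positive replicates 1, 3, 4 and 5, and of 801, 925 and 834 on Nestin-negative replicates 1, 4 and 5. Every Nestin-positive array lay below every Nestin-negative one, with Nestin-positive replicate 3 nearest to them. The means were 489 ± 156 (SD, n = 4) and 853 ± 64.1 (SD, n = 3), a log2 difference of -0.85 ± 0.22 SE or 1.81-fold (limma, adjusted p = 0.112). With the replicate block Unc5c fell by 1.05 ± 0.13 (log2, SE; adjusted p = 1.8e-05). Without Nestin-positive replicate 3, the fit with no block gave -1.05 (adjusted p = 0.0479). Its other probe set had signals of 139, 235, 141 and 181 against 310.4, 295 and 279 in the same order, again without overlap. Values of other genes are given in this order of replicates too.

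Unc5b, a second Unc5 receptor that also acts in blood vessels, had signals of 216, 177, 436 and 305 in Nestin-positive and 515, 699.8 and 521 in Nestin-negative cells. Nestin-positive replicate 3 was lowest and the groups were separate. The log2 difference was -1.10 ± 0.29 SE, or 2.14-fold (limma, adjusted p = 0.113, and 0.0455 without Nestin-positive replicate 4), and -0.90 ± 0.15 SE with the replicate block (adjusted p = 0.00045). A dimmer Unc5b probe set had signals of 167, 59.9, 260.2 and 183 against 357, 373 and 328. Both Unc5 genes were thus lower on each of 2 probe sets and in all 3 pairs.

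Dcc, the attractive netrin receptor, differed the other way. Its signals were 9924, 12389, 9604 and 10101 on the Nestin-positive arrays and 8813, 8523 and 8450.2 on the Nestin-negative ones, means of 10504 ± 1273 (SD, n = 4) and 8596 ± 192 (SD, n = 3). The groups did not overlap, but Nestin-positive replicate 3 stood above the other 3. The log2 difference of 0.28 ± 0.11 SE, or 1.22-fold, did not pass (limma, unadjusted p = 0.0299, adjusted p = 0.284), nor did it with the replicate block (0.20 ± 0.097, adjusted p = 0.231). A second bright Dcc probe set gave 7673, 9359, 8578 and 7214 against 6849.6, 6163 and 6687, also without overlap, and the remaining, dim one overlapped.

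Neo1 encodes neogenin, which binds netrins and the repulsive guidance molecules. Its brightest probe set had signals of 4805, 4519, 4649.7 and 4976 in Nestin-positive and 5846, 5684 and 5522 in Nestin-negative cells, with no overlap and a log2 difference of -0.26 ± 0.094 SE (limma, adjusted p = 0.234; -0.24 ± 0.098 and 0.139 with the block). The other 4 Neo1 probe sets did not bear this out as a group. The second brightest had a log2 difference of -0.31, whereas 2 others stood at 0.044 and 0.048 and separated replicate 1 of both fractions from replicates 4 and 5. On the brighter of these 2 the replicate 1 arrays reached 1826 and 1689.7, and the arrays of replicates 4 and 5 lay between 404 and 573. The remaining one, a dim probe set, had a difference of 0.79. Unc5a and Unc5d did not pass the filter on low signal.

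**Figure D2:**
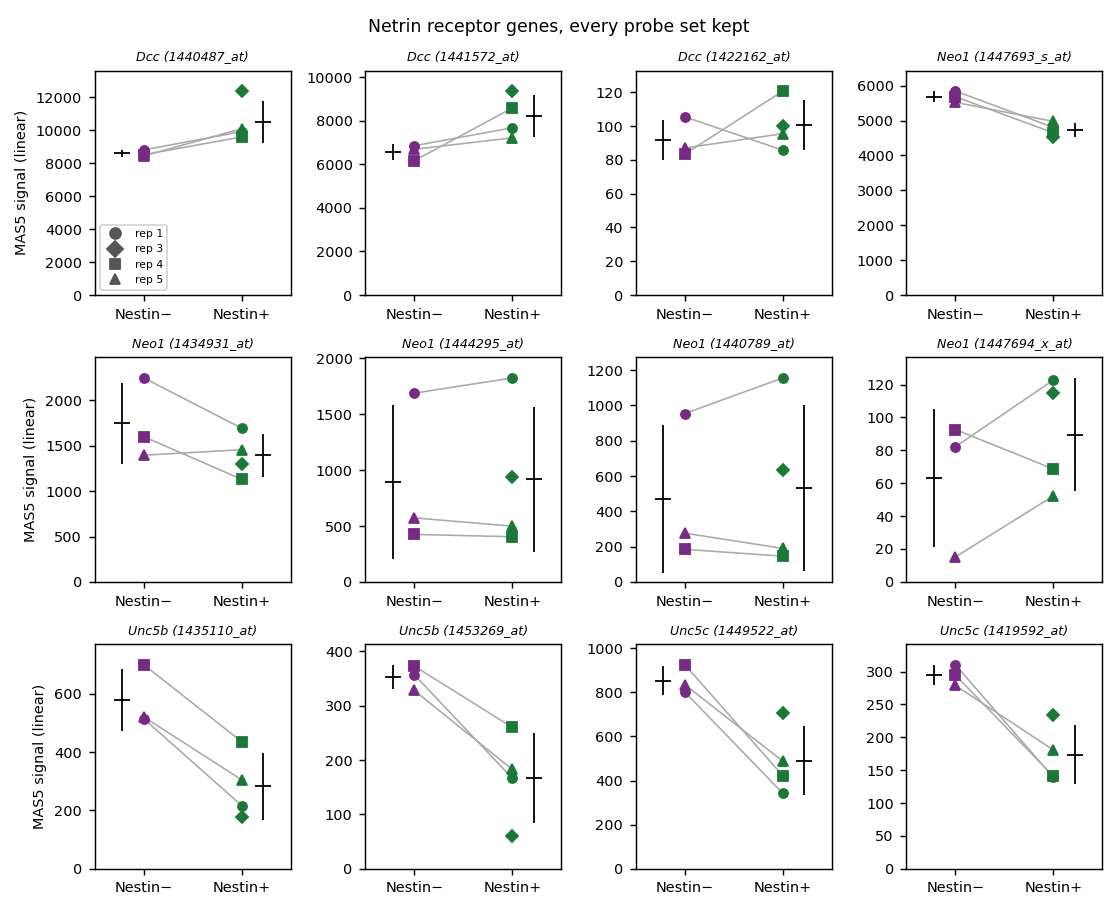
MAS5 signal (y axis, linear, from 0) of every kept probe set of Dcc, Neo1, Unc5b and Unc5c in Nestin-negative (purple) and Nestin-positive (green) cells, with a marker shape per replicate number, grey lines joining same-numbered samples and black bars for mean ± SD (n = 3 and 4). Both probe sets of Unc5b and of Unc5c fall along all 3 lines, and 2 of the 5 Neo1 probe sets separate replicate 1 from replicates 4 and 5 instead.

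Of the 3 measured netrin and netrin-G genes, 1 fell with the block. Ntn1, the secreted netrin-1, had signals of 2729, 1796, 3364 and 2889.6 against 3232, 2939 and 2914, which overlapped (log2 difference -0.20 ± 0.19 SE, limma, adjusted p = 0.687; -0.02 ± 0.11 with the block). Nestin-positive replicate 3 was the lowest of the 7 arrays. Ntn4, a netrin that binds laminin, was 1740.0, 1839.5, 1736 and 1915 against 2338, 1979 and 2111. These values did not overlap, yet the difference of -0.24 ± 0.11 SE did not pass (limma, adjusted p = 0.353, and 0.156 with the block), and a dimmer Ntn4 probe set overlapped. Ntng1, the membrane-anchored netrin-G1, which binds Lrrc4c and not Dcc, had signals of 332, 321, 296 and 276 against 502, 353 and 414. It was lower by a log2 difference of -0.45 ± 0.16 SE (limma, adjusted p = 0.24) and fell by 0.48 ± 0.15 with the block (adjusted p = 0.0434). That call was lost without replicate 1 (adjusted p = 0.226) or replicate 5 (adjusted p = 0.22). Its partner gene Lrrc4c did not pass in either fit (log2 difference -0.35 ± 0.37 SE, adjusted p = 0.728, limma). Ntn3, Ntn5 and Ntng2 reached the median signal on no array.

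Of the 5 measured class 3 semaphorins, 1 fell with the block and 4 did not pass. Sema3d, a secreted semaphorin, gave signals of 63.8, 70.8, 61.2 and 38.1 on Nestin-positive replicates 1, 3, 4 and 5 against 183, 269.8 and 125 on Nestin-negative replicates 1, 4 and 5. All 4 Nestin-positive values lay below their array medians and all 3 Nestin-negative values above. Its entry into the test thus rested on the fraction in which it was high, and its call is no support for a direction of the list. With the dim values raised to the array median, the fall was at least 2.37-fold. The measured log2 difference was -1.69 ± 0.34 SE (limma, adjusted p = 0.0609), and -1.79 ± 0.28 SE with the replicate block (adjusted p = 0.00019). The same-numbered pairs 1, 4 and 5 differed by -1.52, -2.14 and -1.71 on the log2 scale.

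Sema3a, which repels axons through Nrp1 and class A plexins, was on the other side, with 238, 421, 199.5 and 221 against 189, 181 and 196. The highest value was that of Nestin-positive replicate 3, and the lowest Nestin-positive value lay just above the highest Nestin-negative one. The log2 difference of 0.45 ± 0.25 SE did not pass (limma, adjusted p = 0.47, and 0.52 with the block). The second, dimmer Sema3a probe set did not overlap either, at 86.9, 141, 80 and 79.2 against 59.9, 43.8 and 59.9. Sema3c, at 77.3, 131, 94.1 and 94.2 against 69.4, 85.4 and 73.4, overlapped. Sema3e, which binds Plxnd1 without a neuropilin, ranged from 176 to 654 in Nestin-positive and from 284 to 603 in Nestin-negative cells (log2 difference -0.029 ± 0.42 SE, limma, adjusted p = 0.985). Its sign was not stable, at 0.38 without Nestin-positive replicate 3, the lowest array, and at 0.23 without Nestin-negative replicate 4. With the block the difference was 0.38 ± 0.16 SE (adjusted p = 0.156), and without replicate 4 it was 0.65 (adjusted p = 0.0039). Of the 65 member probe sets tested singly with the block, 1 rose and 8 fell, against 1.53% of all 20162 probe sets higher and 3.34% lower. The 8 include both kept probe sets of Unc5b and both of Unc5c, so they stand for fewer genes. They also include the Sema3d probe set, which was kept through the Nestin-negative arrays alone. The 1 that rose was a Sema3e probe set, at 1.16 ± 0.27 SE (limma, adjusted p = 0.0235), while the other Sema3e probe set stood at 0.14. Sema3f, a ligand of Nrp2, scattered from 45.2 to 362 within the Nestin-positive group alone, and its pairs differed by 1.15, -2.22 and 0.75. With the block it was -0.74 without replicate 1 (limma, adjusted p = 0.0115) and 0.95 without replicate 4, so that no direction can be given.

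The promoters of the 3 members with the largest blocked falls are shown because their log2 differences were the most negative and because their start regions differ in base composition. Each is 250 bases before to 50 bases after the RefSeq gene start in GRCm38.p6, 5′ to 3′ on the gene's strand, and capitals mark CG dinucleotides. Sema3d lies on the plus strand at chr5:12382916-12383215, Unc5c on the plus strand at chr3:141465314-141465613 and Unc5b on the minus strand at chr10:60831532-60831831.
Sema3d: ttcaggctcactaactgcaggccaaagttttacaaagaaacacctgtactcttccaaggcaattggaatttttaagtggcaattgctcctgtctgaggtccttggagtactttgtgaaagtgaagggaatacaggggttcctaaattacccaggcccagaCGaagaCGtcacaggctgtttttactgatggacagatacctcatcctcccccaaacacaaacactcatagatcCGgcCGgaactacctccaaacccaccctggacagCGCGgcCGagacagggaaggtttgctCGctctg
Unc5c: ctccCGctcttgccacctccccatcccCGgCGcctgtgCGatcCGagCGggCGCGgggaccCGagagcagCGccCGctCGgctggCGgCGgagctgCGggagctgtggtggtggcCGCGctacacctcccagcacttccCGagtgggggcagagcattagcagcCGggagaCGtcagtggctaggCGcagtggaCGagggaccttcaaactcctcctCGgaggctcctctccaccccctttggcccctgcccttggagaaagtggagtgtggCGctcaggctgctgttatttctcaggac
Unc5b: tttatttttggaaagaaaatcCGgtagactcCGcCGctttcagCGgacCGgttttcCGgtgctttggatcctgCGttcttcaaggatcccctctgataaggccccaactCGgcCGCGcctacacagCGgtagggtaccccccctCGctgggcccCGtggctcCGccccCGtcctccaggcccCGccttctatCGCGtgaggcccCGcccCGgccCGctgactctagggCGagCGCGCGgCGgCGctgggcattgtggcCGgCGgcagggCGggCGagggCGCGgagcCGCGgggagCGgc
The Sema3d window held 8 CG dinucleotides and was 49.7% G or C, that of Unc5c held 24 (68.3%) and that of Unc5b 36 (69.7%). Of the 32851 promoter windows in the table, 48.6% held at least as many as Sema3d, 20.0% as many as Unc5c and 6.23% as many as Unc5b. Windows were examined for 6 of the 7 members that fell, and Sema6a was left out. The E-boxes CAGATG and CAGCTG, the GLI motif GACCACCCA and the NFI motif TTGGCA were searched on both strands, and none of the 6 windows held any of them, which says only that these letters are not in these windows. Over all windows the respective shares were 17.2%, 16.3%, 0.253% and 14.1%.

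Of the 11 measured membrane-bound or GPI-anchored semaphorins, 2 fell with the block. Sema6a, a transmembrane semaphorin that is a ligand of Plxna2, had signals of 697, 646, 851 and 655 against 1440.3, 1158 and 1077. The 4 Nestin-positive values lay close together and below all 3 Nestin-negative ones, with means of 712 ± 95.2 (SD, n = 4) and 1225 ± 191 (SD, n = 3). The log2 difference was -0.78 ± 0.15 SE, or 1.72-fold (limma, adjusted p = 0.0536), and -0.74 ± 0.13 SE with the block (adjusted p = 0.00056). In the fit with no block it passed without Nestin-positive replicate 4 (adjusted p = 0.0413). A second Sema6a probe set differed by -0.73, with overlap. Sema4f, a membrane semaphorin of neurons, gave 1251, 972, 1384 and 1378 against 2268, 1958 and 1859. It was likewise separate, at -0.71 ± 0.15 SE or 1.64-fold (limma, adjusted p = 0.0692; -0.60 ± 0.11 and 0.00142 with the block). A second Sema4f probe set overlapped, at 502, 286, 500.4 and 541 against 533, 709 and 531, and differed by -0.40.

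Sema4g, at 408, 229, 381 and 291 against 679, 397 and 397, overlapped and had an unadjusted p of 0.0496 (limma, log2 difference -0.57 ± 0.26 SE, adjusted p = 0.346). Sema7a, a GPI-anchored semaphorin that binds integrins and Plxnc1, had a higher mean in Nestin-positive cells, with 5538, 6163, 7212 and 6808 against 4136, 5314 and 6339.8. It was higher in all 3 pairs, by 0.42, 0.44 and 0.10 on the log2 scale, but did not pass (limma, 0.30 ± 0.16 SE, adjusted p = 0.424; 0.32 ± 0.10 and 0.0521 with the block). Sema6d was also higher in all 3 pairs, at 3629.6, 5613, 4505 and 3912 against 2897, 4025 and 3546 (log2 difference 0.33 ± 0.17 SE, limma, adjusted p = 0.421). The class 4 genes Sema4a, Sema4b, Sema4c and Sema4d differed by -0.15 to -0.049, with Sema4b at 463 ± 26.8 (SD, n = 4) and 479 ± 27.1 (SD, n = 3). Sema6b had signals between 18 and 101, which overlapped. Sema6c overlapped and had its lowest value, 40.1, on Nestin-positive replicate 3.

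All 8 measured plexins, the semaphorin receptors, had negative log2 differences in the fit with no block, from -0.92 to -0.028. With the block 1 of them fell, and Plxnb1 turned to 0.031 ± 0.12 SE. Plxna1, Plxna3 and Plxnb2 were each higher in 1 of the 3 pairs. Plxna2, the Sema6a receptor, had signals of 486, 576, 570.0 and 485 in Nestin-positive and 1117, 876 and 601 in Nestin-negative cells. The Nestin-positive values were tightly grouped, whereas Nestin-negative replicate 5 came close to them. The log2 difference was -0.67 ± 0.20 SE, or 1.59-fold (limma, adjusted p = 0.157), and with the block -0.71 ± 0.15 SE (adjusted p = 0.0028; 0.0601 without replicate 1). All 4 kept Plxna2 probe sets were lower, and the groups did not overlap on 3 of them. Ligand and receptor of this pair, Sema6a and Plxna2, were thus both lower in the blocked fit. Plxnb3 was lower without overlap, at 101, 57.3, 134 and 118 against 204, 188 and 164 (limma, log2 difference -0.92 ± 0.30 SE, adjusted p = 0.198, and 0.0805 with the block), and was dimmer than the median probe set on Nestin-positive replicate 3.

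Plxnb2, a receptor of class 4 semaphorins known from granule cell development, overlapped between the fractions at 4629, 4932, 7385 and 6038 against 6111, 6611 and 7036 (limma, -0.22 ± 0.16 SE, adjusted p = 0.595). Plxnc1, the Sema7a receptor, was at 2725, 3046, 2776 and 3048 against 2864, 3594 and 3061. Plxna1, Plxna3 and Plxnb1 overlapped, with adjusted p-values from limma of 0.558 to 0.961. Plxnd1, the Sema3e receptor, ranged from 65.4 to 198 in Nestin-positive and from 104 to 238 in Nestin-negative cells. It was lowest on replicate 1 in the Nestin-negative group and on replicates 1 and 3 in the Nestin-positive group, the 3 arrays on which the mean of an endothelial marker list was also lowest. The part of endothelial cells in the Plxnd1 signal was not tested. Nrp1, the neuropilin of Sema3a and of VEGF, gave 282, 338, 352 and 396 against 128, 284 and 469 on its brightest probe set, a log2 difference of 0.40 ± 0.36 SE (limma, adjusted p = 0.679). Nestin-negative replicate 1 was lowest, and without it the difference was -0.10. With the block it was 0.40 ± 0.20 SE (adjusted p = 0.238), and 0.73 without replicate 5 (adjusted p = 0.0271). The other kept Nrp1 probe sets differed by -0.72 and -0.56, so that no direction can be given for this gene.

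**Figure D3:**
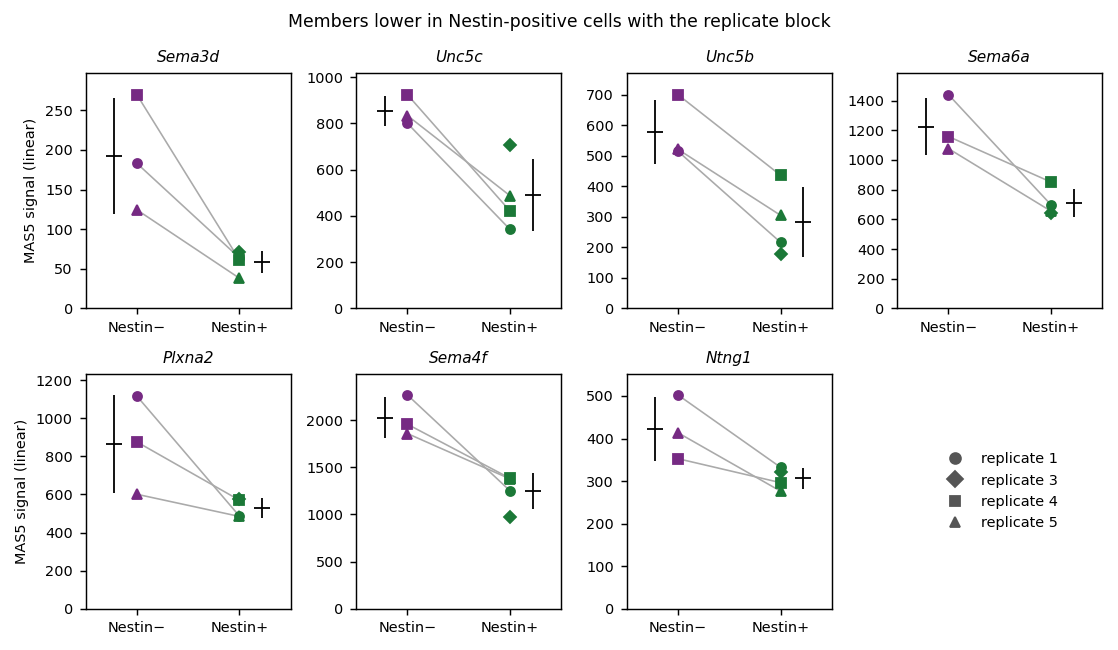
MAS5 signal (y axis, linear, from 0) of the 7 guidance genes lower with the replicate block, in Nestin-negative (purple, n = 3) and Nestin-positive (green, n = 4) cells. Marker shapes give the replicate number, grey lines join same-numbered samples and black bars are mean ± SD; every line falls and no gene has overlapping groups.

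None of the 4 measured Slit and Robo genes passed in either fit. Robo1, a Slit receptor, had signals of 1943, 3582, 2127 and 2550.2 against 1606, 1835 and 2112. It was higher in all 3 pairs by 0.27, 0.21 and 0.27 on the log2 scale, but the arrays overlapped (limma, 0.43 ± 0.20 SE, adjusted p = 0.375; 0.25 ± 0.10 and 0.133 with the block). Robo2 separated replicates rather than fractions, at 932, 780.0, 172 and 173 against 492, 133 and 186, with replicate 1 of both fractions and Nestin-positive replicate 3 high. The log2 difference was 0.74 ± 0.67 SE (limma, adjusted p = 0.682), and with the block 0.39 ± 0.18 SE (adjusted p = 0.189; 0.0308 without replicate 5). The same 3 arrays were high on the 2 Neo1 probe sets described above. Slit2, the best-known ligand of Robo1 and Robo2, was at 374, 341, 273 and 259 against 391, 331 and 256 (limma, -0.061 ± 0.20 SE, adjusted p = 0.923). Slit1 overlapped too, at 136, 72.9, 170.4 and 182 against 219.6, 196 and 169. Slit3, Robo3 and Robo4 did not pass the filter on low signal.

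**Figure D4:**
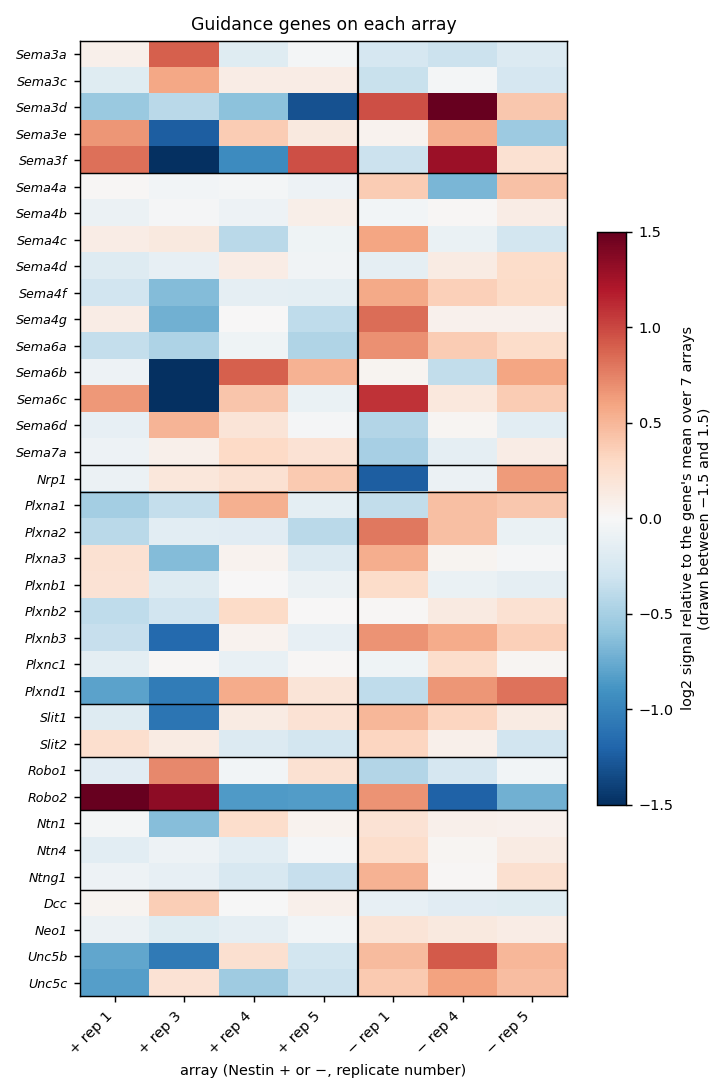
Log2 signal of the 36 measured guidance genes (rows, grouped by role) on the 7 arrays (columns) relative to each gene's mean over all arrays, with colours drawn between -1.5 and 1.5. Nestin-positive replicate 3 holds the lowest value of 15 genes and Nestin-negative replicate 1 the highest of 14, and Robo2 is high on replicate 1 of both fractions.

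Of the 14 members that did not pass the filter, Plxna4, Robo3, Sema3b, Slit3, Ntn3, Ntn5, Ntng2, Unc5a and Unc5d were below the array median on all 7 arrays, and Nrp2, Robo4, Sema3g, Sema5a and Sema5b reached it on 2. Sema5a was brightest on the Nestin-negative arrays, at 105 and 202 on replicates 4 and 5. These genes were not tested, and a dim signal on this platform does not show that a gene is silent.

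Among 106 genes listed as partners of these pathways, 92 were measured. Limma called 2 of the 92 lower and 0 higher, against 0.577% and 0.171% of all genes. At an unadjusted p under 0.05, 11 of the 92 were lower and 5 higher, against 9.09% and 5.33% of all genes. With the block 10 were lower (10.9%, against 6.39% of all genes) and 4 higher (4.35%, against 3.58%). L1cam, an adhesion molecule that serves as co-receptor of Nrp1 for Sema3a, had signals of 612, 258, 729 and 512 against 2229, 1823 and 1729. It fell 3.89-fold (limma, log2 difference -1.96 ± 0.30 SE, adjusted p = 0.0328). Elmo1, a subunit of Rac activators, was at 496, 499, 673 and 628 against 1080.3, 1013 and 958 and fell 1.79-fold (limma, -0.84 ± 0.15 SE, adjusted p = 0.0403). Each was separate on all arrays, and Nestin-positive replicate 3 had the lowest L1cam value. The adjusted p-values rose to at most 0.148 for L1cam and 0.161 for Elmo1 when 1 array was left out, and of the partners L1cam alone passed with quantile normalization.

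Of 26 measured partner ligands and co-receptors, 5 fell with the block (19.2%, against 6.39% of all genes) and 2 rose (7.69%, against 3.58%). With the block L1cam fell by 1.65 ± 0.12 SE (adjusted p = 4.8e-08), and 3 related adhesion genes of axons fell with it. Cntn2 had signals of 2141, 994, 2225 and 2214 against 5769, 3308 and 3356 and a blocked difference of -0.87 ± 0.13 SE (adjusted p = 0.0002). Chl1 had 155, 349, 205 and 211 against 209.8, 491 and 346, a blocked difference of -0.80 ± 0.18 SE (adjusted p = 0.00498; up to 0.0825 with 1 pair left out). Nrcam had 2073, 2003, 1402 and 1762 against 3026, 2315 and 2065, a blocked difference of -0.50 ± 0.11 SE (adjusted p = 0.00559). The groups were separate for Cntn2 and overlapped for Chl1 and, narrowly, for Nrcam. The fifth was Dscam, a netrin receptor, named after its values were seen (-1.01 ± 0.24, 0.00843). The rises, also named after their values were seen, were Flrt2, a ligand of Unc5 receptors, and Draxin, a secreted ligand of Dcc. Flrt2 had signals of 1357, 1535, 1287 and 1260.2 against 890.5, 1041 and 1009 and rose by 0.41 ± 0.11 SE with the block (adjusted p = 0.0223; up to 0.261 with 1 pair left out). Draxin had 7500.1, 5726, 8296 and 7799 against 6629.6, 5655 and 5482 and rose by 0.41 ± 0.10 SE (adjusted p = 0.0128; up to 0.18). Unc5b and Unc5c and the ligand gene Flrt2 therefore had opposite signs in the blocked fit. The other Flrt genes on the list, Flrt1 and Flrt3, were not called in it. With 1 pair left out, their blocked log2 differences lay from -0.27 to 0.099 and from -0.24 to -0.017.

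Of 35 measured cytoplasmic effectors, 3 fell (8.57%, against 6.39% of all genes) and 2 rose (5.71%, against 3.58%) with the block, shares near those of all genes. Dpysl3, a CRMP that carries semaphorin signals to microtubules, gave 2000.4, 2407, 2388 and 2673 against 4935, 3662 and 3469 and fell by 0.77 ± 0.13 SE (adjusted p = 0.00065). Cdk5r1, the activator of the kinase Cdk5, had 3069.7, 1772, 3109 and 2943 against 5657, 4581 and 4351 and fell by 0.67 ± 0.10 (adjusted p = 0.00021). Trim67, a ubiquitin ligase that binds Dcc, had 393, 271, 358 and 403 against 719, 540.4 and 546 and fell by 0.63 ± 0.14 (adjusted p = 0.00449). The groups did not overlap for any of these 3. Myo10, a motor that carries Dcc into filopodia, had 908, 1201, 1178 and 1023 against 734, 791 and 726 and rose by 0.46 ± 0.11 (adjusted p = 0.0126). Farp1, a plexin-associated exchange factor named after its values were seen, rose by 0.47 ± 0.12 (adjusted p = 0.0174). Those rises reached adjusted p-values of 0.0658 and 0.166 with 1 pair left out. Among the other partners, Elmo1 had a blocked difference of -0.77 ± 0.13 SE (adjusted p = 0.00046). Srgap2, a protein of the Slit and Robo pathway, had 1439, 1257, 1274 and 1335 against 2214, 1747 and 1674, a blocked difference of -0.47 ± 0.11 SE (adjusted p = 0.00723; up to 0.0827 with 1 pair left out).

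Some marker lists of other cell states and types differed between the fractions, and others overlapped. The 10 granule neuron differentiation markers, which include L1cam, Cntn2 and Nrcam, had summed signals of 26747 to 35396 on the Nestin-positive and 42761 to 47729 on the Nestin-negative arrays. All 10 lay above the array median on all arrays, 4 fell in the fit with no block and 9 with it. Over all genes, 0.577% fell with no block, and 6.39% fell and 3.58% rose with the block. The 7 measured G2 and mitosis markers of 8 listed went the other way, with sums of 29093 to 31971 against 19290.3 to 23551, and all 7 rose with the block. The 8 measured microglia and macrophage markers of 10 summed to 287 to 1036 against 1945 to 7531, and 0 of the 8 exceeded the median signal on every one of the Nestin-positive arrays. All 8 fell with the block, but 1 of them was below the median on every Nestin-positive array. That marker passed the filter through the Nestin-negative arrays alone, so that it had to differ. Pericyte and smooth muscle sums (7 of 9 markers) were 487 to 1903 against 1227 to 8905, those of meningeal fibroblasts (5 of 6) 3546 to 5463 against 4988 to 10812, and those of endothelium (8 of 10) 408 to 1730.1 against 609 to 1860. With the block 5 pericyte, 4 meningeal and 0 endothelial markers fell. The 2 measured interneuron markers of 5 summed to 4.27 to 129.8 against 376 to 686, and 1 of these 2 likewise entered through the Nestin-negative arrays alone. Astrocyte and Bergmann glia sums (8 of 8 markers) ranged from 3008 to 21538 against 2857 to 16011, oligodendrocyte lineage sums (5 of 8) from 5621 to 7331 against 6593 to 7404, and Purkinje cell sums (3 of 5) from 455 to 830.3 against 501 to 595, all of them overlapping between the fractions. With the block 4 astrocyte and Bergmann glia markers fell and 1 rose, while 2 oligodendrocyte lineage markers and 1 Purkinje cell marker rose. Astrocyte sums of replicates 4 and 5 were 8117 and 8865 in Nestin-positive against 15177 and 16011 in Nestin-negative cells. Those of replicate 1 were 3008 against 2857. Of the granule neuron precursor markers 2 rose and 1 fell with the block. No marker signal was 0. The part of these lists in the differences of guidance genes was not tested.

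**Figure D5:**
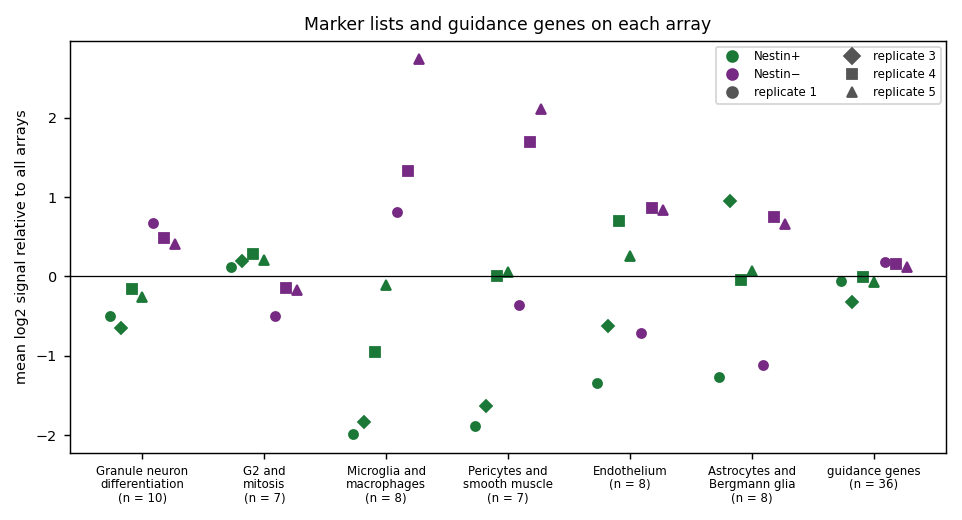
Mean log2 signal of 6 marker lists and of the 36 guidance genes (x axis, n genes in brackets) on each array, relative to the mean over all arrays (y axis). Green marks Nestin-positive and purple Nestin-negative arrays, with a shape per replicate number; the fractions separate for the differentiation, mitosis and microglia lists, and overlap for pericytes, endothelium and astrocytes.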

How the data were processed

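RNA from sorted cells was hybridised to Affymetrix whole-genome mouse arrays, 1 per sample. The authors deposited linear MAS5 intensity values, per the submitters' processing notes, and on every array the trimmed mean was 500, as found from the values. Medians were 64.4 to 94.5 per array. No scanner files were used here.

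Signals were taken to log2 without further normalization. Of 45101 probe sets, 64 controls were left out; of the rest, 34945 name 1 gene, 932 several and 9160 none in the platform annotation (34741 matched RefSeq by Entrez ID). A probe set was kept at or above the array median on at least 3 arrays, and each gene was represented by its brightest kept probe set. The fractions were compared by limma 3.58.1, run in R 4.3.3 (two-sided, intensity trend, Benjamini-Hochberg over 11089 genes, or over all kept single-gene probe sets where probe sets were tested singly, threshold 0.05) over all 7 arrays with no covariate. The procedure was tested on simulated data.

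Deviations from the group means correlated at r = 0.71, 0.39 and 0.47 for samples numbered 1, 4 and 5 in both fractions. Samples with different numbers correlated at r = -0.60 to 0.19, the highest being Nestin-positive replicate 4 with Nestin-negative replicate 5. Every same-numbered pair exceeded 0.1, but some differently numbered samples did too, so this threshold alone does not establish the pairing. The numbers were taken to pair samples on this evidence from the data alone. A fit that enters this number as a block is given beside the main one.

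Members were named in full where a fit called them, where the unadjusted p was under 0.05, or where they were the brightest of their role group; up to 4 partners per list were named by blocked p, and others by their role as ligand or receptor of a named gene, or after their values were seen. The symbols Unc50, Unc5cl and Plxna4os1 are no family members and were left out. Members and lists were chosen with earlier results of these data known. The counts of 1 of the partner lists are not reported here.

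Alternatives were quantile normalization, signals raised to the array median, no filter, the mean of kept probe sets, a pseudocount of 16, no intensity trend, the block, and each replicate left out.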

Additional observations from a re-analysis of the deposited data

How the results depend on the processing

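The replicate block (pairing by replicate number) raised the guidance genes called lower from 0 to 7, the partners from 2 to 10 lower and from 0 to 4 higher, and the member probe sets from 0 to 8 lower and 1 higher; the median log2 difference was -0.15. Leaving out 1 pair in the blocked fit gave 6 to 8 guidance genes lower and 0 to 2 higher (2 without replicate 4 and 2 without replicate 5), 10 to 13 partners lower (11 without replicate 5) and 1 to 7 higher, and medians of -0.21 to -0.10 (-0.14 without replicate 5). Over all 11089 genes the block raised the calls from 64 to 709 lower and from 19 to 397 higher. With 1 pair left out, 546 to 886 of all genes were lower and 182 to 567 higher. Sema3d, Sema4f, Sema6a, Unc5b and Unc5c were called in all 3 of these fits, Plxna2 in 2 and Ntng1 in 1. Such calls are no check of stability, because each of these fits holds 2 pairs and takes most of its variance from other genes. The fit on 3 pairs had 2 residual degrees of freedom and 19.8 in total. Unc5c went from an adjusted p of 1.8e-05 with 3 pairs to 2.7e-09 without replicate 5 (limma). Sema3f was called in opposite directions without replicate 1 and without replicate 4. Without the block, leaving out 1 array gave 0 to 2 guidance genes lower (1 without Nestin-positive replicate 3, 2 without replicate 4), 0 to 2 partners lower, medians of -0.29 to -0.15, 2 to 4 higher and 10 to 13 lower genes without overlap, and Nes differences of 1.597 to 1.86, which missed the threshold in 4 of the fits (limma, adjusted p = 0.0514 to 0.118). Over all genes, leaving out 1 array gave 0 to 80 lower and 0 to 17 higher. Groups of fewer arrays separate more readily, and the share of all genes without overlap is not given for the alternatives. Raising dim signals to the median, or a pseudocount of 16, gave 1 guidance gene lower each (Sema6a), against 98 and 82 lower over all genes. Quantile normalization gave 1 partner lower and 1 guidance gene higher without overlap. No filter gave 1 partner lower. The mean of probe sets gave 1 partner lower and 6 guidance genes lower without overlap. Dropping the intensity trend gave 0 partners lower and 0 of all genes called by limma, with 1573 genes at an unadjusted p under 0.05.

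Signs changed for genes that did not pass: Neo1 to 0.062 and Nrp1 to -0.29 with the mean of probe sets; Nrp1 to -0.10 without Nestin-negative replicate 1, the low end of a range up to 0.84; Ntn1 to 0.091 in the blocked fit without replicate 1; Slit2 to 0.12 with the mean of probe sets, and between -0.22 and 0.081 with an array left out. Sema3e turned to 0.38 with the block (0.22, 0.26 and 0.65 with a pair left out), 0.22 with the mean of probe sets, and lay between -0.31 and 0.38 with an array left out. Plxnb1 turned to 0.031 and Sema6b to 0.35 with the block. Sema4a and Sema4c changed sign with an array left out, reaching 0.12 and 0.14. The cause of these changes was not tested, and the leave-out fits also hold fewer samples. All 36 guidance genes were also checked for a single outlying Nestin-positive array, with 0 found. In the fit with no block the least precise members were Sema3f, Robo2 and Sema6c, with SEs of 0.69, 0.67 and 0.67. Sema3d, Sema3c and Sema6b, with signals near the array median, had SEs of 0.34, 0.28 and 0.58.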
